A study of Mus musculus with 6 samples.

Results

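The genes described here build the entry route of the secretory pathway: the machinery that brings new proteins into the endoplasmic reticulum (ER), cuts off their signal peptides and attaches N-linked sugars, and the coated vesicles that carry them from the ER to the Golgi and back. They are a list of 51 genes drawn from that textbook knowledge, with earlier results of these data known. A gene was measured where a probe set of the array carried its symbol alone, and by the probe set with the highest mean log2(signal + 16) over the 6 arrays. This gave 50 genes, with 109 probe sets among the 45101 of the array. The remaining gene, Sec61g, has 1 probe set, which also carries the symbols of other genes, and it was not analysed here. The samples were pancreatic islets, the clusters of hormone-secreting cells of the pancreas, isolated by collagenase digestion from pregnant mice at 12.5 days post coitum (dpc; 3 arrays) and from non-pregnant mice (0 dpc; 3 arrays). The labels give neither strain nor age, and no genotype or treatment other than pregnancy. The study sought factors behind the proliferation of islets in pregnancy. Values are MAS5 signals, background-corrected intensities scaled to a common mean on each array. Whether replicate arrays stem from different mice is not stated in the labels, so p-values measure the spread between these arrays, which may be technical.

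A protein to be secreted is recognised by its signal peptide as it leaves the ribosome. The signal recognition particle (SRP) takes the ribosome to its receptor on the ER, the Sec61 channel lets the chain through, signal peptidase removes the signal peptide, and oligosaccharyltransferase transfers a preassembled sugar tree to asparagines. Vesicles with a COPII coat then carry cargo out of the ER, and vesicles with a COPI coat return escaped ER proteins and receptors. Beta cells make large amounts of proinsulin, which enters this route but carries no N-linked sugar, while many of their receptors, channels and convertases are glycosylated.

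Genes of this route were higher in pregnancy, by small amounts, and each functional group held genes that rose. Of 49 genes with a signal high enough to be tested, 35 rose and 0 fell (limma, adjusted p under 0.05 over all 27022 probe sets tested). At an unadjusted p under 0.05, 40 were higher and 0 lower. Over all probe sets tested, 4.79% were called higher and 4.78% lower, 9.57% in all. With each array centred on its own median, 1430 probe sets were higher and 583 lower, against 1294 and 1293 as scaled by the authors, and 32 of the listed genes rose and 0 fell. Among 12914 genes with 1 probe set each, 6.1% rose and 5.79% fell. Among the 5221 probe sets with mean signals of 1284 to 14546, the range from the 10th to the 90th percentile of these genes, 13.2% rose and 9.9% fell. The median log2 difference over the 50 genes was 0.28, against -0.04 over all probe sets tested. A total of 46 genes had a positive and 4 a negative difference. Called differences ran from 0.19 for Stt3b to 0.72 for Mcfd2, which are ratios of mean signals of 1.14 and 1.64. On 40 genes the 3 pregnant arrays lay above the 3 non-pregnant arrays and on 2 genes below them, where 11.6% and 16.1% of all probe sets tested did so. Fewer cells of a type and less RNA per cell cannot be told apart in such bulk samples.

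**Figure D1:**
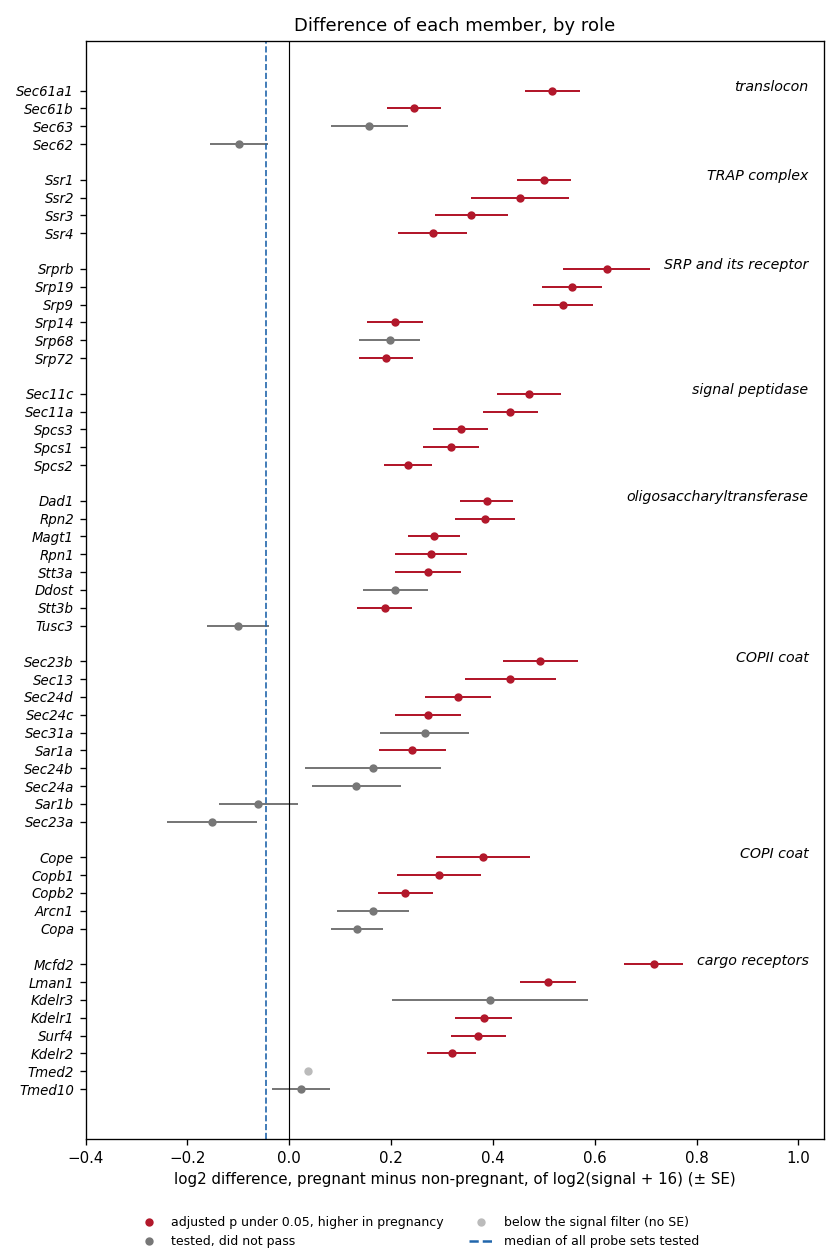
Log2 difference (pregnant minus non-pregnant, x axis, ± limma standard error) of each gene, grouped by role, with 3 arrays in each group. The red points are the 35 genes that passed, from 0.19 (Stt3b) to 0.72 (Mcfd2). The dashed line is the median of all probe sets tested, -0.04.

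Regulatory sequence near the start sites was read from the RefSeq promoter windows of build GRCm38.p6 (250 bases before to 50 after each start), which cover 40 of the 51 genes in 43 windows. The sequences below are shown because the genes moved together and because some of these windows hold the letters of a known stress element. Whether that element has a part in the rise was not tested. Motifs were searched on both strands. TGACGTGG is the core of the unfolded protein response element bound by XBP1 and ATF6. The ER stress element is CCAAT and CCACG with 9 bases between them. Its variant ERSE-II is ATTGG and CCACG with 1 base between them. The short parts CCAAT and CCACG and the E-boxes CATATG and CAGCTG were searched as well. CCACG lies within both ER stress elements, and each copy of TGACGTGG contains its reverse complement, CGTGG. The core TGACGTGG was found in the windows of 5 of the 40 genes (12.5%), against 0.714% of all 27025 genes with a window. The 5 stretches follow in the direction of the gene with 30 bases on each side, and capitals mark the core or its reverse complement.

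Sec24d (chr3:123267440-123267507, plus strand): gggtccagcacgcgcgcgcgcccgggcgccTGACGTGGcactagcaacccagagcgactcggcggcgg
Copb1 (chr7:114254671-114254738, minus strand): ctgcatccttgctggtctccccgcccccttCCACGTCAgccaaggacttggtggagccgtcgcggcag
Copb2 (chr9:98563694-98563761, plus strand): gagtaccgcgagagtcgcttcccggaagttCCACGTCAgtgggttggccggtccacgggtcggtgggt
Sec23a (chr12:59011974-59012041, minus strand): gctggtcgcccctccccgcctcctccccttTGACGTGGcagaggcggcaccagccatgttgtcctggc
Kdelr3 (chr15:79516348-79516415, plus strand): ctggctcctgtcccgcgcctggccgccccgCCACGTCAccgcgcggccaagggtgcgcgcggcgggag

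The leftmost base of the core lay at -26 in Sec24d, -28 in Copb1, -7 in Copb2, +7 in Sec23a and -30 in Kdelr3, counted from the start site as +1. Of these genes Sec24d, Copb1 and Copb2 rose, whereas Sec23a and Kdelr3 did not pass. The core was thus in 3 of the 28 genes with a window that rose (10.7%) and in 2 of the remaining 12 (16.7%). Among the other secretory pathway genes described below, it was in 4 of 103 with a window (3.9%), and in 0 of the 30 that rose. Neither form of the complete ER stress element was in any of the 43 windows, while they occur in 0.137% and 0.044% of all genes. CCACG was in 26 of the 40 genes (65%) and 35.5% of all genes, and CCAAT in 17 (42.5%) and 41.1%. By call, CCACG was in 19 of the 28 genes that rose (67.9%) and in 7 of the remaining 12 (58.3%). It was about as common among the other secretory pathway genes, in 64 of 103 (62.1%) and in 22 of the 30 that rose (73.3%). The E-boxes CATATG and CAGCTG were each in 2 of the 40 genes (5.0%), against 4.5% and 18.3% of all genes. The genes with the largest differences among those with a window were Mcfd2 and Srprb, and their whole windows are given with each CCACG or its reverse complement in capitals, 3 in either gene.

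Mcfd2 (chr17:87265898-87266197, minus strand): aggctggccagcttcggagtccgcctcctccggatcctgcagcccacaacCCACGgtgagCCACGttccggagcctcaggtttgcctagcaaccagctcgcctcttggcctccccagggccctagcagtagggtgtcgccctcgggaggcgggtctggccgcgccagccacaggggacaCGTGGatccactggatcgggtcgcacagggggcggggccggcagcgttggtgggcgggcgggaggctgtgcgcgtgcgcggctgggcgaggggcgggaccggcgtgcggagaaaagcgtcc
Srprb (chr9:103202016-103202315, minus strand): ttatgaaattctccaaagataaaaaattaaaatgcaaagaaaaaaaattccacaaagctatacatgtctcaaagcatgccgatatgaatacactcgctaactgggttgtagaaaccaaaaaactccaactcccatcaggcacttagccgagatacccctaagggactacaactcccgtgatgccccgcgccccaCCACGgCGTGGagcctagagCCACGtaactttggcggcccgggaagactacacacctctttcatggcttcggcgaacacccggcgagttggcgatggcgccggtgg

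A match of letters is a description of the window and shows no binding.

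In targeting to the ER, 5 of 6 genes of the SRP and its receptor rose, with a median log2 difference of 0.37. In what follows the 3 values of a group are MAS5 signals of replicates 1, 2 and 3 in that order. Srprb, the membrane-anchored beta subunit of the SRP receptor, had 1651, 1564 and 1613 in pregnant islets, against 1086, 942.0 and 1096 in non-pregnant islets. The groups did not overlap (log2 difference 0.62 ± 0.08 SE, adjusted p = 7.0e-04). Its 3 probe sets all passed. Srp19, which binds the SRP RNA and is needed to load SRP54, read 5609.5, 5704 and 5784.5 in pregnant islets, against 3877, 3718 and 4036 in non-pregnant islets (0.55 ± 0.06, adjusted p = 1.1e-04). Srp9 belongs to the Alu domain, which slows translation while the ribosome docks, and its signals were 11345, 11399.5 and 10175 in pregnant islets, against 7677, 7539 and 7429 in non-pregnant islets (0.54 ± 0.06, adjusted p = 1.5e-04). Every pregnant array of these 3 genes was above every non-pregnant one. Srp14, the partner of Srp9 in the Alu domain, rose as well (0.21 ± 0.06, adjusted p = 0.034), as did Srp72 (0.19 ± 0.05, adjusted p = 0.045). Srp68, which forms a dimer with Srp72, had 0.20 ± 0.06 and did not pass (adjusted p = 0.060), although its groups did not overlap.

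At the channel, 2 of 4 genes rose. Sec61a1, the pore-forming subunit, had 12669, 12427 and 12534 in pregnant islets, against 8559.9, 9248 and 8499 in non-pregnant islets. The replicates of a group lay close together and the groups far apart (0.52 ± 0.05, adjusted p = 1.0e-04). Sec61b, a small tail-anchored subunit of the channel, had 22896, 21033 and 22524 in pregnant islets, against 19541, 18312 and 18190.4 in non-pregnant islets (0.25 ± 0.05, adjusted p = 0.013). Sec62 and Sec63 assist the channel with precursors that enter after translation, and neither passed. Sec62 was -0.10 (adjusted p = 0.34) and Sec63 0.16 (adjusted p = 0.24), and 1 of the 5 Sec63 probe sets, not the brightest, passed (0.32 ± 0.08, adjusted p = 0.026).

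All 4 genes of the translocon-associated protein (TRAP) complex rose, with a median of 0.41. TRAP sits beside the channel and helps chains with weak signal peptides, among them preproinsulin, to enter. Ssr1, its alpha subunit, had 10770.2, 11012 and 10497 in pregnant islets, against 7389.8, 7629 and 7792 in non-pregnant islets (0.50 ± 0.05, adjusted p = 1.1e-04). Ssr2, the beta subunit, read 8088, 7347 and 7775 in pregnant islets, against 6637, 4791 and 5650.5 in non-pregnant islets (0.45 ± 0.10, adjusted p = 0.012). Ssr3, the gamma subunit, read 10970.3, 9627 and 10619 in pregnant islets, against 8903, 7569.9 and 7902 in non-pregnant islets (0.36 ± 0.07, adjusted p = 0.0081). The groups were separate for each, narrowly for Ssr2 and Ssr3, where non-pregnant replicate 1 was the highest of its group. Ssr4, the delta subunit, had mean signals of 29362 ± 183 in pregnant and 24247 ± 2647 in non-pregnant islets (SD, n = 3 each), and rose by 0.28 ± 0.07 (adjusted p = 0.022). Ssr2 and Ssr3 did not pass without pregnant replicate 1, and Ssr4 did not without any of the 3 pregnant arrays or without non-pregnant replicate 2 or 3. Averaged over its 3 probe sets Ssr4 had 0.05 and did not pass (adjusted p = 0.84).

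Signal peptidase, which cleaves the signal peptide, rose in all 5 of its genes, with a median of 0.34. Its catalytic subunits are the paralogs Sec11a and Sec11c. Sec11a had 8988, 9099 and 8992 in pregnant islets, against 6439.8, 6642 and 6960.0 in non-pregnant islets (0.43 ± 0.05, adjusted p = 3.7e-04). Sec11c had 14578, 14016 and 12439 in pregnant islets, against 9760.0, 9711 and 10073 in non-pregnant islets (0.47 ± 0.06, adjusted p = 6.2e-04). The lowest pregnant value was above the highest non-pregnant value for both, and the per-array difference Sec11c minus Sec11a changed by 0.04 between groups, which overlapped (exact permutation test, 2-sided p = 0.6). The accessory subunit Spcs3 read 11358, 10737 and 10839 in pregnant islets, against 8976, 8329 and 8767 in non-pregnant islets (0.34 ± 0.05, adjusted p = 0.0023). Spcs1 read 26216, 23721 and 25407 in pregnant islets, against 21079, 19955 and 19395 in non-pregnant islets (0.32 ± 0.05, adjusted p = 0.0034). Spcs2 had 18258, 17881 and 17803 in pregnant islets, against 15594, 15002 and 15279 in non-pregnant islets (0.23 ± 0.05, adjusted p = 0.0088). The pregnant arrays were above the non-pregnant arrays for each of the 3. Averaged over all probe sets, including dim ones, Spcs1 had 0.15 and Sec11a -0.030, and neither passed.

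Oligosaccharyltransferase, the enzyme of N-glycosylation, had 6 of 8 genes higher and a median of 0.28. Dad1, a small subunit shared by both forms of the enzyme, had 15486, 15803.5 and 15491 in pregnant islets, against 12499, 11586 and 11686.5 in non-pregnant islets (0.39 ± 0.05, adjusted p = 5.8e-04). Rpn2 (ribophorin II) had 7359.7, 7121 and 6680.3 in pregnant islets, against 5553, 5322 and 5320.1 in non-pregnant islets (0.38 ± 0.06, adjusted p = 0.0015). Both were separate between groups. Rpn1 (ribophorin I) rose by 0.28 ± 0.07 (adjusted p = 0.029) in its brightest probe set, and 4 dimmer ones rose by 0.31 to 0.51. The catalytic subunits are Stt3a, which acts on chains as they pass the channel, and Stt3b, which also acts after translation. Stt3a rose by 0.27 ± 0.06 (adjusted p = 0.021), and Stt3b by 0.19 ± 0.05 (adjusted p = 0.049), just inside the threshold. Averaged over their probe sets, Stt3a had 0.16 and Stt3b 0.23, and neither passed (adjusted p = 0.29 and 0.092). Stt3a also did not pass without pregnant replicate 1 or 2 or non-pregnant replicate 2. Stt3b did not without any of the 3 pregnant arrays or without non-pregnant replicate 2 or 3. Ddost had 0.21 ± 0.06 and did not pass (adjusted p = 0.062). Magt1 and Tusc3 are alternative thiol-oxidoreductase subunits of the Stt3b form. Magt1 read 9909, 9654 and 9925 in pregnant islets, against 8204.5, 8113 and 7884 in non-pregnant islets (0.28 ± 0.05, adjusted p = 0.0044). Averaged over its 2 probe sets Magt1 had 0.23 and did not pass (adjusted p = 0.068). Tusc3 read 3925, 4035 and 4022 in pregnant islets, against 4071, 4319 and 4471.5 in non-pregnant islets, a difference of -0.10 ± 0.06 that did not pass (adjusted p = 0.37). The pregnant arrays were thus above for Magt1 and below for Tusc3. Levels of different probe sets cannot be compared, and the change of their difference between groups holds only for the probe sets used. The dimmer tested Magt1 probe set had 0.18, against 0.28 for the brightest, which was used here. Within each array log2 Tusc3 minus log2 Magt1 was -1.30 ± 0.04 in pregnant and -0.91 ± 0.10 in non-pregnant islets (SD, n = 3 each), without overlap (change -0.39, exact permutation test, 2-sided p = 0.1, the smallest that 3 against 3 arrays can give).

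**Figure D2:**
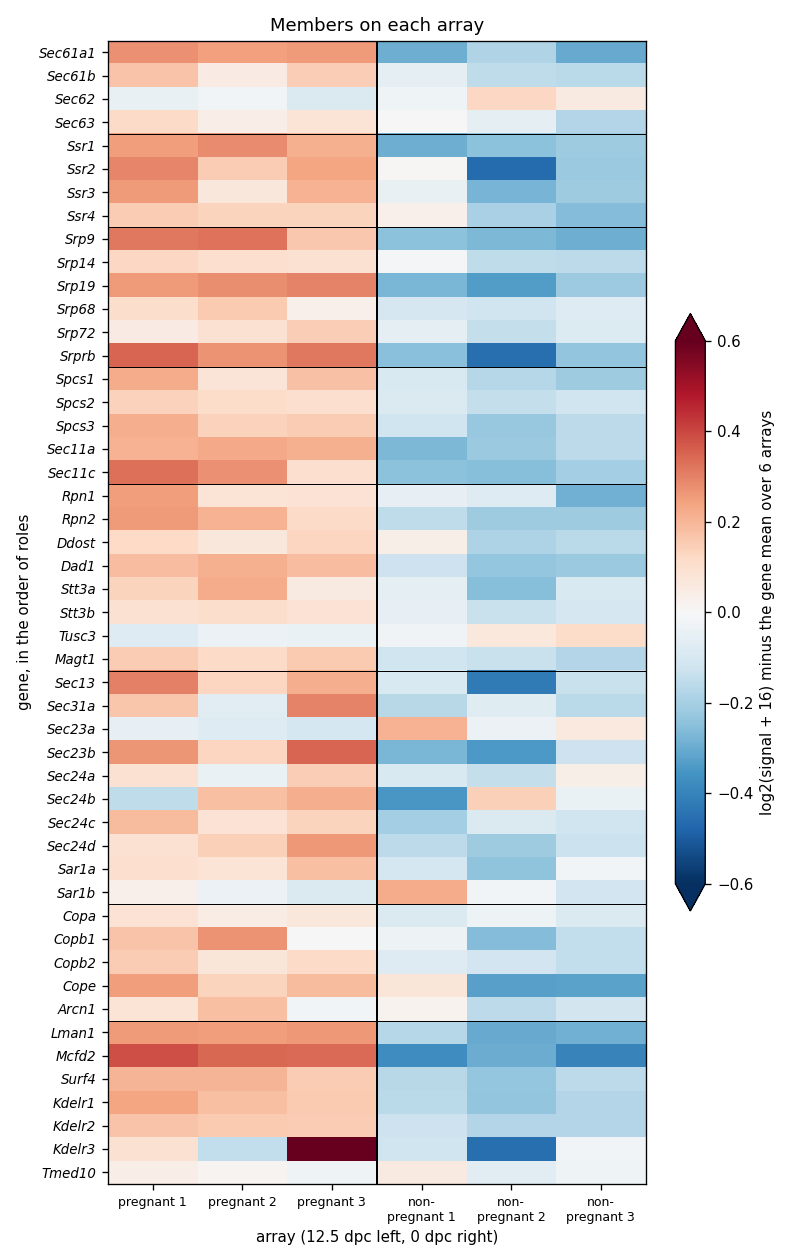
Each of the 49 tested genes (rows, in the order of roles) on each array (columns, pregnant left of the black line), as log2(signal + 16) minus the gene's mean over the 6 arrays. Red is above and blue below that mean, as in most rows left and right of the line. Tusc3 and Sec23a run the other way, and the groups overlap for Sec62, Sec24a, Sec24b, Sar1b, Arcn1, Kdelr3 and Tmed10.

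The COPII coat, which buds vesicles from the ER, was mixed: 5 of 10 genes rose, with a median of 0.25. The inner coat is a dimer of SEC23 and the cargo-binding SEC24. Sec23b had 8659.6, 7895 and 9185 in pregnant islets, against 5971, 5681 and 6619.5 in non-pregnant islets (0.49 ± 0.07, adjusted p = 0.0012). Its paralog Sec23a had 1049, 1030.3 and 1010.3 in pregnant islets, against 1258, 1059 and 1130.5 in non-pregnant islets, and its difference of -0.15 ± 0.09 did not pass (adjusted p = 0.34). The pregnant arrays were above for Sec23b and below for Sec23a. Log2 Sec23b minus log2 Sec23a was 3.04 ± 0.12 in pregnant and 2.39 ± 0.15 in non-pregnant islets (SD, n = 3 each), a change of 0.65 without overlap (exact permutation test, 2-sided p = 0.1). It was the largest change among the 10 paralog pairs compared, and of these pairs Sec23b with Sec23a, Tusc3 with Magt1 and Kdelr2 with Kdelr1 did not overlap between groups, the last with a change of -0.06. No pair could reach a p below 0.1, and each pair was read from the brightest probe sets alone.

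The SEC24 paralogs, which select cargo, were called in part. Sec24d had 4317, 4466 and 4847 in pregnant islets, against 3631, 3489.5 and 3699 in non-pregnant islets (0.33 ± 0.06, adjusted p = 0.0071), and Sec24c rose by 0.27 ± 0.07 (adjusted p = 0.021). The other tested Sec24c probe set had -0.0006, and averaged over both Sec24c had 0.14 and did not pass (adjusted p = 0.565). Sec24c also did not pass without pregnant replicate 1 or 3 or non-pregnant replicate 1. The closely related pair of Sec24a and Sec24b did not pass. Sec24a read 1288, 1172 and 1339 in pregnant islets, against 1132.5, 1093 and 1238 in non-pregnant islets (0.13 ± 0.09, adjusted p = 0.42), and Sec24b read 862.4, 1089 and 1120.1 in pregnant islets, against 750.6, 1060.2 and 932.8 in non-pregnant islets (0.16 ± 0.13, adjusted p = 0.53). Both overlapped between groups. In the outer coat, Sec13 had 4319, 3829.9 and 4074 in pregnant islets, against 3278, 2599.7 and 3192 in non-pregnant islets (0.43 ± 0.09, adjusted p = 0.0091, not passing without pregnant replicate 1), and its partner Sec31a had 0.27 ± 0.09 without passing (adjusted p = 0.083). The GTPases that start the coat split: Sar1a rose by 0.24 ± 0.07 (adjusted p = 0.038), whereas Sar1b had 10716, 10246 and 9886 in pregnant islets, against 12239, 10380.3 and 9702 in non-pregnant islets, which overlap (-0.06 ± 0.08, adjusted p = 0.71). The per-array difference Sar1b minus Sar1a overlapped as well (change -0.30, exact permutation test, 2-sided p = 0.2).

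In the COPI coat 3 of 5 genes rose, with a median of 0.23. Cope, the epsilon subunit, rose by 0.38 ± 0.09 (adjusted p = 0.022). Its mean signals were 14988 ± 625 in pregnant and 11597 ± 1917 in non-pregnant islets (SD, n = 3 each). Copb1 and Copb2, the beta and beta prime subunits, rose by 0.29 ± 0.08 and 0.23 ± 0.05 (adjusted p = 0.045 and 0.021). Copa, the alpha subunit, had 0.13 ± 0.05, and Arcn1, the delta subunit, 0.16 ± 0.07, and neither passed (adjusted p = 0.14 and 0.19). All 5 differences were positive by the brightest probe set, while the other tested Copa probe set had -0.14. Each of the 3 calls was lost when pregnant replicate 1 or non-pregnant replicate 2 or 3 was left out.

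Among the cargo receptors 5 of 7 tested genes rose, and the largest difference of the whole list was here. LMAN1 is a lectin that ferries glycoproteins from the ER to the Golgi, and MCFD2 is its soluble calcium-binding partner. Mcfd2 had 6449, 6267 and 6252 in pregnant islets, against 3802.5, 4004 and 3730.0 in non-pregnant islets, a ratio of means of 1.64 (0.72 ± 0.06, adjusted p = 1.3e-05). Lman1 had 10809, 10765 and 10842 in pregnant islets, against 8028, 7343 and 7411 in non-pregnant islets (0.51 ± 0.06, adjusted p = 1.3e-04). The replicates of either gene lay close together and the groups far apart. Surf4, a membrane receptor for soluble cargo, had 7512, 7522 and 7259 in pregnant islets, against 5813, 5549 and 5860.2 in non-pregnant islets (0.37 ± 0.05, adjusted p = 0.0012), and all 5 of its probe sets passed.

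KDEL receptors catch ER chaperones that have reached the Golgi and send them back. Kdelr1 read 6749, 6490.1 and 6402 in pregnant islets, against 5127, 4870.2 and 5066 in non-pregnant islets (0.38 ± 0.06, adjusted p = 0.0012). Kdelr2 read 15842, 15649 and 15599 in pregnant islets, against 12884.5, 12417 and 12439 in non-pregnant islets (0.32 ± 0.05, adjusted p = 0.0014). Both were separate between groups. Kdelr3 varied widely within groups, with 415.3, 350.1 and 618.5 in pregnant islets, against 356.5, 280.0 and 384.9 in non-pregnant islets (0.39 ± 0.19, adjusted p = 0.25), and its groups overlapped. Tmed10, a p24 protein of COPI and COPII vesicles, gave mean signals of 6770 ± 154 in pregnant and 6662 ± 278 in non-pregnant islets (SD, n = 3 each) and a difference of 0.02 ± 0.06 (adjusted p = 0.86). Its relative Tmed2 could be read only from a probe set below the filter, whose signals averaged 40.5 ± 11.6 in pregnant and 39.4 ± 12.7 in non-pregnant islets, since its 6 other probe sets carry a second symbol.

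Most of these genes were measured more than once. Of 107 tested probe sets of the list, 67 were called higher and 0 lower. A total of 28 genes had more than 1 tested probe set, and calls in opposite directions occurred in 0 of them. The brightest probe set passed in 22 of the 28, and in 16 of these 22 at least 1 dimmer probe set passed too. In 14 of the 16 genes the dimmer probe sets that passed had the larger mean difference, for example 0.53 against 0.32 for Kdelr2 and 0.54 against 0.39 for Dad1. Probe sets that passed are a selection for large differences. Over all tested probe sets the dimmer ones had the larger mean in 14 of 28 genes. Probe sets whose name ends in x_at or s_at can bind other transcripts as well. Those ending in x_at represent Ssr3, Srp14, Rpn1, Stt3a and Surf4 here, and those ending in s_at represent Ssr4 and Lman1.

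**Figure D3:**
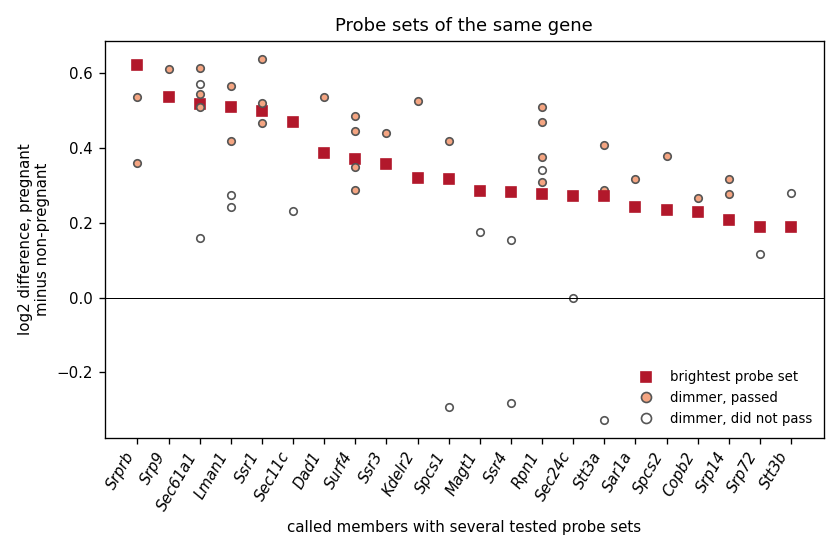
Log2 difference (pregnant minus non-pregnant, y axis) of every tested probe set of the 22 called genes with several (x axis, ordered by the brightest probe set). Squares are the brightest probe sets, filled circles dimmer ones that passed and open circles dimmer ones that did not. Filled circles lie above the square in most genes, as for Kdelr2 (0.53 against 0.32), while the open circles at -0.28 to -0.33 belong to Ssr4, Spcs1 and Stt3a.

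Other genes of the pathway were measured alongside. Of 116 tested in 5 lists, 37 rose and 2 fell by their brightest probe set, with a median of 0.18. With the probe sets of each gene averaged, 21 of these 39 did not pass. The N-glycan list counted 8 higher and 0 lower of 31, the COPII list 9 and 0 of 22, the COPI list 13 and 1 of 31, the insertion list 3 and 1 of 18 and the list of regulators 4 and 0 of 14. Medians were 0.22 in each of the first 3 lists, 0.06 for the insertion list and 0.09 for the regulators. Among all 12914 genes with 1 probe set each, 6.1% rose and 5.79% fell. Among the 5221 probe sets as bright as the listed genes, these shares were 13.2% and 9.9%. These lists too were drawn up with earlier results of the data known.

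In the glycosylation list, Mogs, the glucosidase that trims the first glucose off a transferred sugar tree, had the largest difference (0.91 ± 0.10, adjusted p = 1.6e-04). Its mean signals were 1995 ± 23.4 in pregnant and 1064 ± 163 in non-pregnant islets (SD, n = 3 each). Krtcap2 and Ostc, further subunits of oligosaccharyltransferase, rose by 0.55 ± 0.07 and 0.35 ± 0.06, and Alg11, a mannosyltransferase that builds the tree, by 0.51 ± 0.09 (adjusted p = 5.0e-04, 0.0043 and 0.0029). Averaged over their probe sets, Ostc had 0.10 and Alg11 0.33, and neither passed. Among COPII genes, Preb (SEC12), the exchange factor that activates SAR1, rose by 0.68 ± 0.07, and the tether and fusion genes Trappc2, Bet1 and Gosr2 by 0.48 ± 0.07, 0.54 ± 0.08 and 0.46 ± 0.07 (adjusted p between 1.3e-04 and 0.0019).

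On the COPI side, Arfgap3, which triggers uncoating, rose by 0.81 ± 0.07, the ER-Golgi protein Ergic2 by 0.76 ± 0.07, and the p24 proteins Tmed5 and Tmed9 by 0.79 ± 0.08 and 0.56 ± 0.06 (adjusted p between 3.7e-05 and 1.1e-04). Tmed8, which was chosen after its value was seen because it was the 1 gene of the list that fell, had -0.37 ± 0.06 (adjusted p = 0.0014). Averaged over their probe sets, Arfgap3 had 0.37 and Tmed8 -0.07, and neither passed. Srpr, the alpha subunit of the SRP receptor, rose by 0.43 ± 0.06 (adjusted p = 9.4e-04), along with the channel-associated Tram1 (0.22 ± 0.06) and Emc4, a subunit of the ER membrane insertase (0.30 ± 0.08), at adjusted p of 0.029 and 0.036. Get4, of the separate route for tail-anchored proteins, had probe sets that passed in opposite directions, the only such gene in the 5 lists. Its representative fell (-0.36 ± 0.08, adjusted p = 0.014), its other probe set rose (0.33 ± 0.07, adjusted p = 0.015), and their mean was -0.013 and did not pass, so no direction is given for the gene. Averaged over all their probe sets, Srpr had 0.21, Tram1 0.28 and Emc4 0.14, and none of the 3 passed.

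Of the regulators, Bhlha15 (MIST1), a transcription factor of secretory cells, had mean signals of 2602 ± 36.3 in pregnant and 1149 ± 136 in non-pregnant islets (SD, n = 3 each; log2 difference 1.18 ± 0.09, adjusted p = 8.6e-06). Ern1 (IRE1 alpha), the ER stress sensor that activates XBP1 by splicing its RNA, rose by 0.89 ± 0.07 (adjusted p = 9.0e-06), but by 0.45, without passing, when its probe sets were averaged. The stress-activated factors Atf6 and Creb3 rose by 0.36 ± 0.07 and 0.43 ± 0.09 (adjusted p = 0.0052 and 0.0086), and Creb3 had 0.25, without passing, when averaged. Xbp1 itself had 0.09 ± 0.05 (adjusted p = 0.34), Creb3l1 0.45 ± 0.20 (adjusted p = 0.20) and Creb3l2, an activator of Sec23a in other tissues, 0.09 ± 0.06 (adjusted p = 0.45), and none of these passed.

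**Figure D4:**
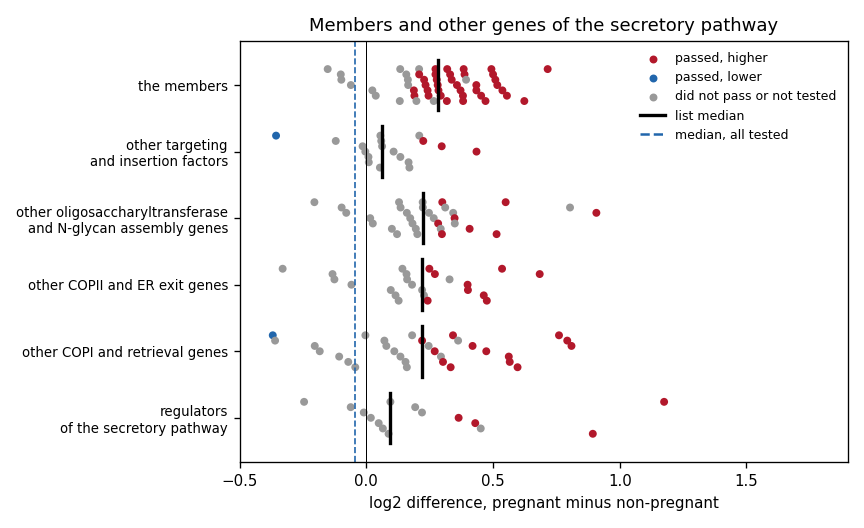
Log2 difference (pregnant minus non-pregnant, x axis) of each gene of the 50 listed genes and of the other 5 lists (rows). Points are genes, the black bar is the median of a list (0.28 for the listed genes, 0.06 to 0.22 for the other lists), and the dashed line is the median of all probe sets tested, -0.04.

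Markers of other cells moved with pregnancy and are set beside these counts. Islet identity was plain from the signals of Iapp (51107, 50408 and 49983 in pregnant islets, against 51080.1, 51191 and 47043.5 in non-pregnant islets), and the summed signal of 10 beta cell markers was 190063 to 192344 in pregnant and 181302 to 193405 in non-pregnant islets. That sum is carried by the brightest genes, and of the 10 markers 1 rose (Pcsk1, 0.94) and 2 fell (Slc2a2, -0.25, and Slc30a8, -0.29). Of 20 tested markers of acinar cells, which make the digestive enzymes of the exocrine pancreas, 17 fell and 0 rose. The sum over 21 acinar markers was 124320 to 203029 in pregnant and 213184 to 404252 in non-pregnant islets, without overlap. The brightest of them were Cela1 (-1.08) and Cela3b (-0.57). The sum of 5 duct markers (4654 to 5067 against 5573 to 5935, pregnant against non-pregnant) and that of 9 stellate and fibroblast markers (10108 to 13050 against 14500.2 to 14868) did not overlap either, and 1 of 3 tested duct and 3 of 9 stellate and fibroblast markers fell. The duct sum is carried by Krt7, with mean signals of 4646 in pregnant and 5594 in non-pregnant islets (-0.27). Krt19 (0.83) and Sox9 (-0.12) did not pass. The sums of endothelial, immune and other islet endocrine markers overlapped. Of 8 other islet endocrine markers all differences were negative and 2 fell (Ghrl, -1.14, and Irx1, -0.40), of 8 endothelial markers 1 fell (Flt1, -0.47), and of 5 tested immune markers 0 passed with limma (1 at an unadjusted p under 0.05). These 6 islet and endothelial genes and the duct genes were named after their values were seen. Acinar cells use the same secretory machinery, and the part of these shifts in the results was not tested.

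The secretory genes and the acinar markers can be set side by side on each array. The median of the 50 genes, each centred on its mean, was 0.17, 0.13 and 0.15 in pregnant and -0.09, -0.19 and -0.16 in non-pregnant islets. The acinar median was -0.89, -0.61 and -0.22 in pregnant and 0.97, -0.12 and 0.96 in non-pregnant islets. Pregnant replicate 3 and non-pregnant replicate 2 were nearly equal in summed acinar signal (203029 and 213184). Between these 2 arrays, chosen for this after the data were seen, 46 of the 50 genes were higher in the pregnant one with a median log2 difference of 0.33, against 44.8% of all probe sets tested and a median of -0.04. With the acinar median as a covariate the median over the 50 genes was 0.35 and 12 genes rose, 0 fell. Over all probe sets tested, 362 were higher and 177 lower in that fit. Each pregnant array had a lower acinar median than each non-pregnant array, so this fit cannot tell pregnancy and acinar signal apart. The 12 genes were Sec61a1, Ssr1, Ssr2, Srp9, Srp19, Srprb, Sec11a, Dad1, Sec13, Sec23b, Lman1 and Mcfd2.

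**Figure D5:**
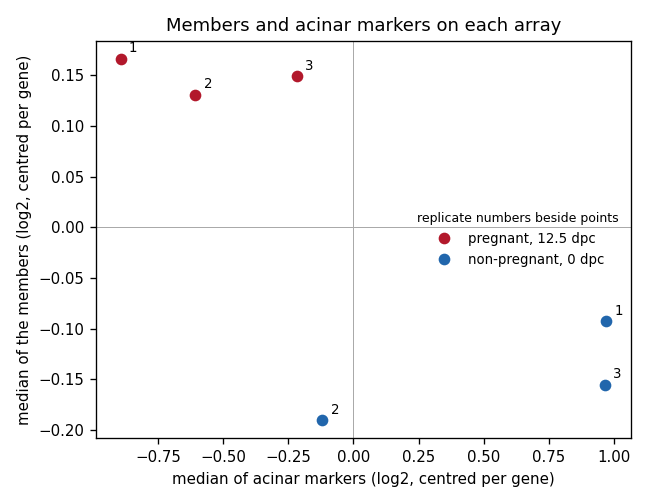
Median of the 50 secretory genes (y axis) against the median of the acinar markers (x axis) on each array, both as log2 values centred per gene, with replicate numbers beside the points. The pregnant arrays lie at 0.13 to 0.17 and the non-pregnant arrays at -0.19 to -0.09 on the y axis, while pregnant replicate 3 and non-pregnant replicate 2 are close on the x axis (-0.22 and -0.12).

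The calls depended on the array set and on the variance model more than the differences did. Leaving out pregnant replicate 1 left 19 genes called, beside 808 higher and 674 lower over all probe sets tested. These 19 also passed without any other single array. They were Sec61a1, Ssr1, Srp9, Srp19, Srprb, Spcs1, Spcs3, Sec11a, Sec11c, Rpn2, Dad1, Magt1, Sec23b, Sec24d, Lman1, Mcfd2, Surf4, Kdelr1 and Kdelr2. Without the trend of variance on signal in limma 7 genes passed, beside 393 higher and 210 lower over all probe sets tested. They were Sec61a1, Ssr1, Srp9, Srp19, Srprb, Lman1 and Mcfd2, and these 7 passed in all 18 alternatives tried. With the probe sets of each gene averaged, 9 of the 35 did not pass, namely Ssr4, Srp72, Spcs1, Sec11a, Stt3a, Stt3b, Magt1, Sec24c and Copb1.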

How the data were processed

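Islet RNA from 3 pregnant and 3 non-pregnant samples was measured on Affymetrix 3' arrays. The authors deposited linear intensities, MAS5 signals per the submitters' processing notes. Neither version nor settings of MAS5 are stated there. Signals trimmed by 2% at either end averaged 500.003 on every array, and the number of arrays limits precision. The genes, lists and tests were chosen with earlier results of these data known.

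Of 45101 probe sets, 64 controls were left out. Values were log2(signal + 16), where 16 is a pseudocount that understates the change of dim genes, with no further normalization. The top 60% by mean were tested (27022, signals above about 50.5). Differences between groups were fitted in R 4.3.3 with limma 3.58.1 (lmFit, eBayes with a variance trend, no covariate, 2-sided, 4 residual degrees of freedom), with Benjamini-Hochberg adjusted p under 0.05 over all probe sets tested. The fit was tested on simulated data. Symbols came from the platform annotation, and all 50 were found unchanged in RefSeq by Entrez identifier. Every listed gene is named, array values are given for the 24 with the smallest p and 6 paralogs, and other lists supply up to 4 genes by smallest p, with 5 fixed regulators.

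Paralogs were compared by an exact permutation test on 10 pairs. Same-numbered replicates had correlations of deviations of -0.03, -0.07 and 0.03, so the numbers were not treated as pairs. Alternatives were pseudocounts of 1 and 64, quantile normalization, median centring, no filter, a top 40% filter, no variance trend, robust eBayes, array weights, a replicate block, each array left out, averaged probe sets and an acinar covariate. Figures used matplotlib 3.10.9.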

Additional observations from a re-analysis of the deposited data

How the results depend on the processing

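In all 18 alternatives 0 listed genes were lower. The 35 called genes kept a positive difference, except Sec11a at -0.030 (adjusted p = 0.959) averaged with a probe set too dim to be tested. The count higher was 7 with no variance trend, 12 with the acinar covariate, 19 to 34 with each array left out (19 without pregnant replicate 1), and 25 to 37 otherwise. Their median was 0.36 with median centring, 0.35 with the acinar covariate and 0.28 to 0.33 with an array left out. The replicate number as a block gave 34 genes, although the numbers do not pair the arrays. Over all probe sets, 583 were lower with median centring. No variance trend gave 393 higher and 210 lower, averaged probe sets 611 and 544, the acinar covariate 362 and 177, and left-out arrays 808 to 1282 higher and 674 to 977 lower. Of the other pathway genes, 12 were higher with no variance trend, 19 when averaged, 14 with the acinar covariate and 26 to 38 with an array left out. Of these 0 were lower in the first 3 settings, 1 with median centring and 1 to 4 with an array left out. The causes were not tested. Signal over background was not given, so dim genes such as Kdelr3 were judged by replicate spread alone.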
